A study of Mus musculus with 4 samples.

Results

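Genes that drive and time cell division were followed in mouse embryos at the 2-cell stage, cultured with or without dimethyl sulfoxide (DMSO), a common solvent. A list of 50 gene symbols was fixed by name, with earlier results of these data known. Its members were found by matching the Ensembl identifiers of the deposited table to GENCODE M21 symbols. Of the 50, 49 were found among the 30049 genes of the table, and Ccnd2 was not analysed here. Control embryos were wild-type BDF1*BDF1 F2 embryos kept for 24 h in KSOM, an embryo culture medium, without DMSO. DMSO embryos had the same strain and genotype and were kept for 24 h in KSOM with 2% DMSO. Zygotes entered culture 18 h after the parent females had received human chorionic gonadotropin, and the mice were 8 to 12 weeks old. Each group had 2 RNA libraries, numbered as replicates 1 and 2, from embryos that had reached the 2-cell stage, 50 of which were collected per group, so embryos that did not divide are outside the data. Nothing states that the 2 libraries of a group came from separate collections, and the p-values therefore measure only the spread between these libraries, which may be technical.

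A cell passes through division by switching cyclin-dependent kinases (CDKs) on and off. Cyclins bind and activate the CDKs, Wee1 and Pkmyt1 hold Cdk1 inactive by phosphorylation, and Cdc25 phosphatases release it, which starts mitosis. Aurora and Polo kinases build the spindle, and the spindle checkpoint holds back the anaphase-promoting complex (APC/C), a ubiquitin ligase, until every chromosome is attached. Once active, the APC/C marks cyclin B and securin for destruction, separase is freed and the chromatids part. The early mouse embryo begins with maternal messages for this machinery and replaces them with its own at about the 2-cell stage.

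Values are TPM, an abundance of transcripts corrected for transcript length and library size, so that levels of different genes in 1 library can be compared. All genes together summed to 768174 (replicate 1) and 780527 TPM (replicate 2) for control and, in the same order, to 772487 and 799166 TPM for DMSO. TPM values keep no read depth, so no counting error is given. The 49 genes together held 5992 and 5405 TPM in control and 4430 and 3868 TPM in DMSO libraries, with no overlap between the groups. Of the summed TPM, the 20 most abundant genes of each library took 22.1% and 23.6% in control and 29.4% and 35.1% in DMSO, a difference that moves with the groups and whose part in the results was not tested. In pooled embryos, fewer cells with a transcript and less of it per cell cannot be told apart.

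Of the 49 genes, 44 averaged 1 TPM or more across the libraries and were tested, with limma on log2(TPM + 1) over all 12038 genes that passed this filter. A gene is called when its Benjamini-Hochberg adjusted p is under 0.05, and fold changes on this scale understate the change of genes with low values. Called lower in DMSO embryos were 7 of the 44, namely Cdk4, Bub3, Anapc7, Cdk2, Anapc13, Cdc25c and Cdc27. That is 15.9%, and the same fit called 14.1% of all genes tested lower, so the share of these genes called lower was near that of the background. By limma 0 of the 44 were called higher, against 6.42% of all genes tested, and 1 had an unadjusted p under 0.05 with a higher value, Fzr1. Of all genes tested, 24.3% had an unadjusted p under 0.05 with lower values and 15.8% with higher values. The median log2 fold change of the 44 was -0.55, against -0.09 over all genes tested, and with quantile normalization these were -0.34 and 0.01. In 26 of the 44, or 59.1%, both DMSO libraries lay below both control libraries, which 38.7% of all genes tested did. In 6 of the 44 both DMSO libraries lay above both control libraries, which 31.1% of all genes tested did. For 1 gene alone, permuting 2 and 2 libraries exactly has 0.33 as its smallest two-sided p. With every gene above 0 TPM tested, limma called 0 of 22257 genes (5368 had an unadjusted p under 0.05), with the same fold changes. With 1 library left out a fit has 1 residual degree of freedom, and limma then called 0 of 12038 genes without control replicate 1, without control replicate 2 or without DMSO replicate 1 (3745, 2602 and 3078 had an unadjusted p under 0.05), so these 3 fits say nothing of which calls are stable. Without DMSO replicate 2 it called 4 of the 7, beside 10.6% lower and 5.04% higher over all genes. None of the 7 log2 fold changes moved by over 1.5 times when any one library was left out. Of the 37 without a call, 25 did or turned sign. A call itself needs a fold change that is large beside the spread of these same libraries. The contrast thus follows largely from the call and is no separate evidence of stability.

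**Figure D1:**
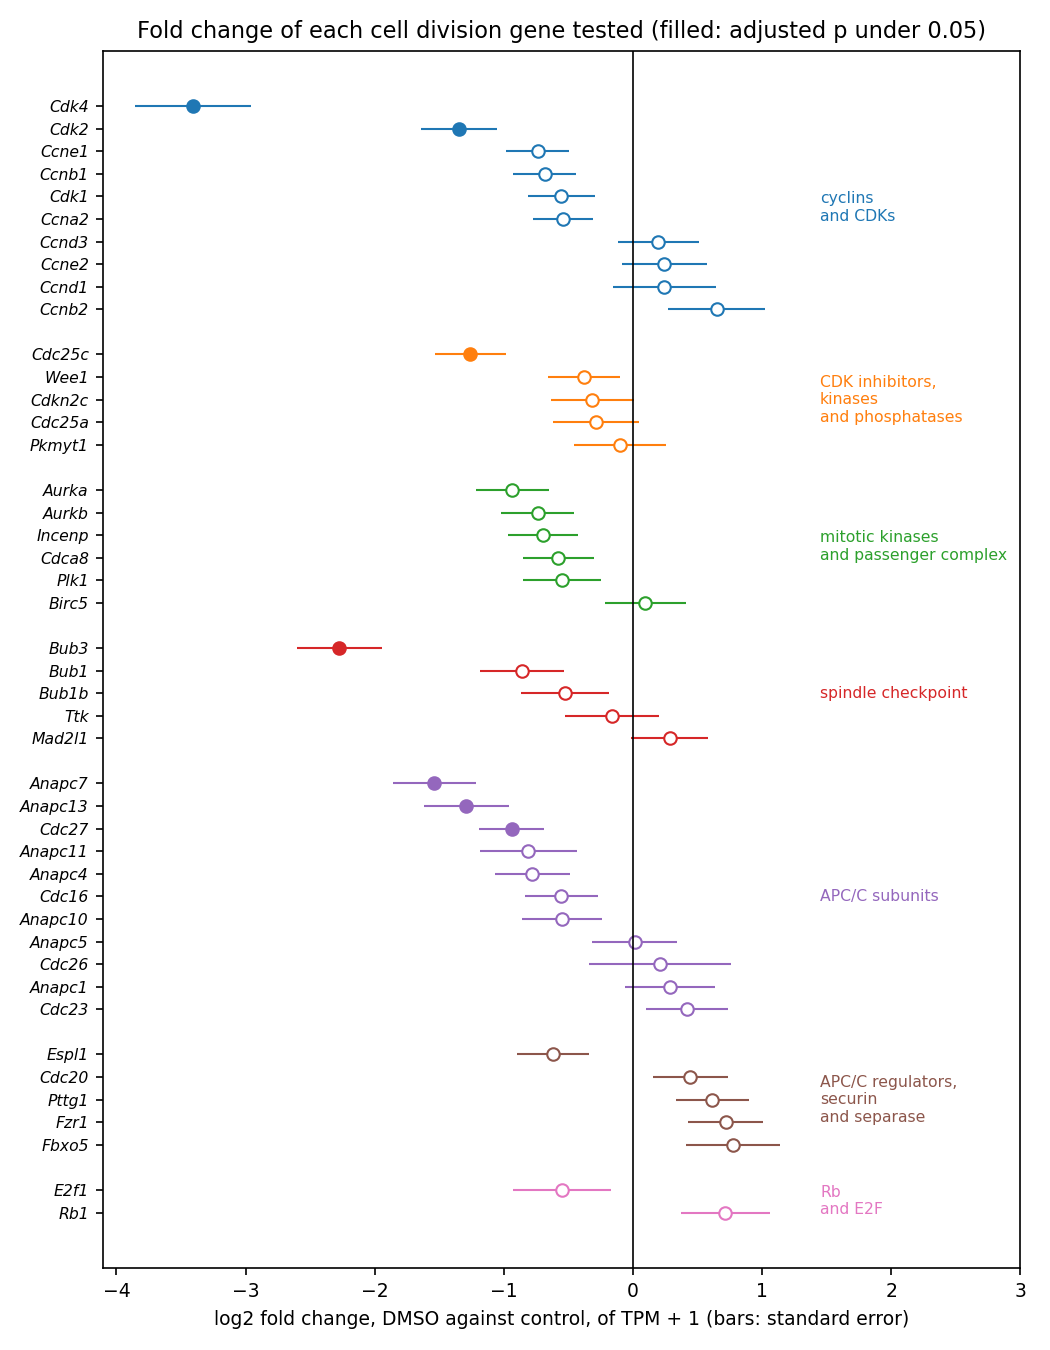
Log2 fold change of TPM + 1, DMSO against control, for the 44 genes tested, grouped by role on the vertical axis, with bars for the limma standard error. Filled points mark the 7 genes with an adjusted p under 0.05, which lie between -3.41 and -0.94, and 4 of the 5 genes of the group of APC/C regulators, securin and separase lie to the right of 0.

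Among the cyclins and CDKs, Cdk2 and Cdk4 fell. The cyclins and the kinase with the highest levels lay lower in both DMSO libraries than in both control libraries, without passing the test. Ccnb2, Ccne2, Ccnd1 and Ccnd3 overlapped between the groups. Of the 10 tested, 6 lay lower in both DMSO libraries, beside 38.7% of all genes tested, and 0 higher, beside 31.1%. Of 10 tested in this group, 2 were called lower and 0 higher, beside 14.1% and 6.42% of all genes tested, 4 had an unadjusted p under 0.05 with lower values, as had 24.3% of all genes, and the median log2 fold change was -0.55, or -0.35 with quantile normalization. Cyclin B1 (Ccnb1), the partner of Cdk1 at entry into mitosis, was the most abundant of the 49 genes. It was at 1078 and 949 TPM in control replicates 1 and 2 and at 676 and 586 TPM in DMSO replicates 1 and 2. Its log2 fold change was -0.68 (standard error, SE, 0.24, limma adjusted p = 0.0869). Of its transcript words of 31 bases, 27.8% also occur in transcripts of other genes, most of them in the pseudogene Ccnb1-ps, which stayed below 2 TPM in all 4 libraries (0.76 to 1.8 TPM). Cyclin B2 (Ccnb2), which can also bind Cdk1, was at 38.3 and 28.1 TPM in control and at 71.3 and 37.9 TPM in DMSO libraries. Here DMSO replicate 1 was the highest library and DMSO replicate 2 lay beside control replicate 1, so the groups overlapped. The log2 fold change of Ccnb2 was 0.65 (limma adjusted p = 0.23), between 0.20 and 1.10 without any one library.

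Cdk1, the kinase that drives mitosis, was at 738 and 598 TPM in control and at 496 and 412 TPM in DMSO libraries (log2 fold change -0.55, SE 0.26, limma adjusted p = 0.155). Cyclin A2 (Ccna2), which acts in DNA replication and at entry into mitosis, was at 759 and 730.1 TPM in control and at 506 and 515 TPM in DMSO libraries (log2 fold change -0.54, limma adjusted p = 0.131). Cyclin E1 (Ccne1), the activator of Cdk2 at the start of replication, was at 428 and 438 TPM in control and at 235 and 286 TPM in DMSO libraries (log2 fold change -0.74, limma adjusted p = 0.0747). For each of these 3 genes both DMSO libraries were below both control libraries, as for 38.7% of all genes tested. None of the 3 passed the threshold. Cyclin E2 (Ccne2) was at 39.1 and 32.7 TPM in control and at 54.7 and 33.0 TPM in DMSO libraries, overlapping between the groups.

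The largest change of the 49 genes was that of Cdk4, which works with D cyclins to phosphorylate Rb (ENSMUSG00000006728, chr10:127063534-127067920 of GRCm38). Cdk4 stood at 39.9 and 98.6 TPM in control and at 4.59 and 5.49 TPM in DMSO, so that the control libraries differed from each other by more than the DMSO libraries did and the groups were far apart. The mean was 13.7 times higher in control, and the log2 fold change was -3.41 (SE 0.45, limma adjusted p = 0.0181, between -4.05 and -2.76 without any one library). Of its 31-base words 19.5% are shared, 18.1% with the overlapping gene Tspan31, which was at 10.0, 3.39, 14.9 and 7.85 TPM in control replicates 1 and 2 and DMSO replicates 1 and 2. Cdk2, which with cyclins E and A drives DNA replication (ENSMUSG00000025358, chr10:128697939-128705031), fell from 34.6 and 40.9 TPM in control to 12.2 and 16.4 TPM in DMSO libraries. Its log2 fold change was -1.35 (SE 0.29, limma adjusted p = 0.0303), and 1.15% of its words are shared. Cdk6, the close relative of Cdk4, stayed under the filter, at 0.355 and 0.477 TPM in control and at 1.88 and 1.04 TPM in DMSO libraries. Of the D cyclins, Ccnd3 was at 10.1 and 13.1 TPM in control and 11.6 and 15.2 TPM in DMSO libraries, and Ccnd1 was between 0.835 and 2.13 TPM in the 4 libraries, so both overlapped. Ccna1, a cyclin of the germ line, was listed at 0 in all 4 libraries.

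**Figure D2:**
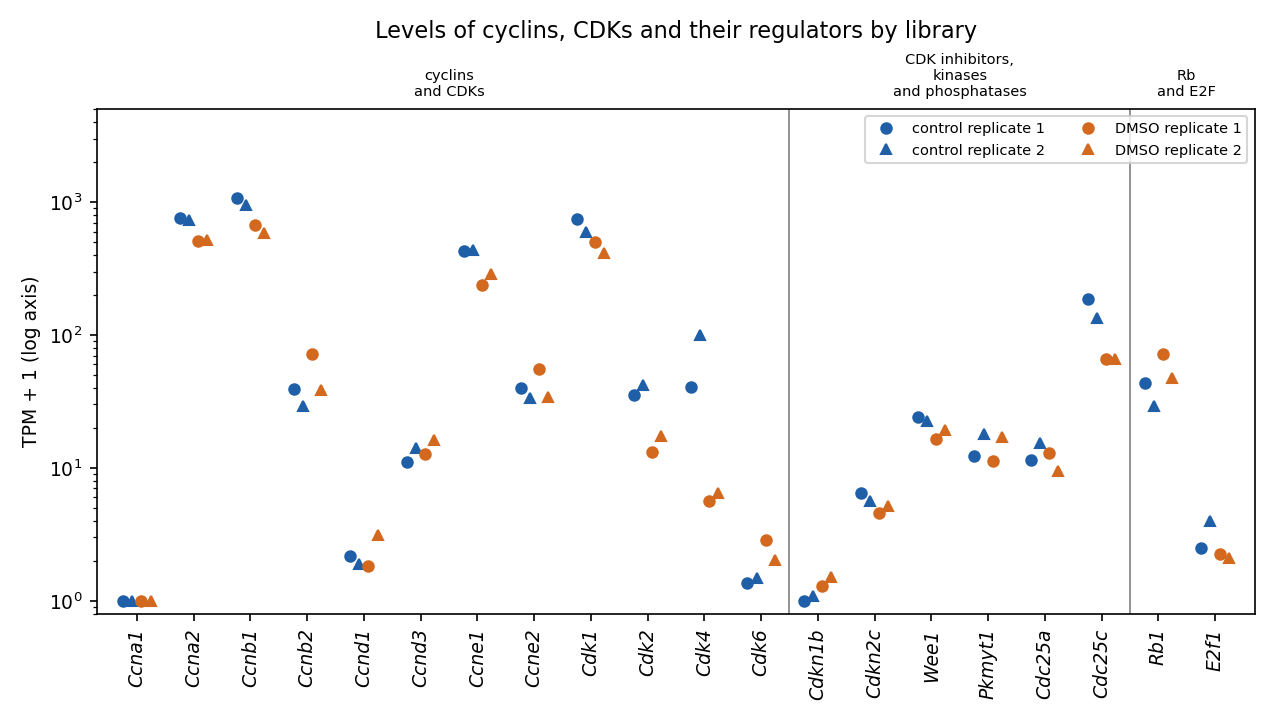
TPM + 1 on a log axis for each cyclin, CDK and regulator of CDKs in the 4 libraries, blue for control and orange for DMSO, circles for replicate 1 and triangles for replicate 2. Cdk4 separates the groups most, and Ccnb1, Ccna2, Cdk1 and Ccne1 form the top of the scale in both groups.

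Among the enzymes that set Cdk1 activity, the activator Cdc25c fell and the inhibitory kinases did not pass the test. Of 5 tested with the CDK inhibitors, 1 was called lower and 0 higher, beside 14.1% and 6.42% of all genes tested, 1 had an unadjusted p under 0.05 (Cdc25c itself), beside 24.3% with lower values of all genes, and the median log2 fold change was -0.31, or -0.21 with quantile normalization. Cdc25c (ENSMUSG00000044201), a phosphatase that removes the inhibitory phosphates from Cdk1, was at 185 and 133 TPM in control and at 64.8 and 65.2 TPM in DMSO libraries. The DMSO libraries nearly coincided and both lay below both controls (log2 fold change -1.26, SE 0.27, limma adjusted p = 0.03), although with quantile normalization the value was -0.97 and the adjusted p 0.0518, within 0.0206 to 0.16 over the alternatives without a block. Of its words 13.3% are shared. Wee1 was at 23.1 and 21.5 TPM in control and at 15.5 and 18.4 TPM in DMSO libraries, without overlap and without passing the test (log2 fold change -0.38, limma adjusted p = 0.337). In 3 of the 5 tested in this group both DMSO libraries lay below both control libraries, beside 38.7% of all genes tested. Pkmyt1 and Cdc25a, the latter a phosphatase that acts on Cdk2 as well, overlapped between the groups, at 10.3 to 16.8 TPM and 8.41 to 14.5 TPM over the 4 libraries. The CDK inhibitor Cdkn2c, which blocks Cdk4 and Cdk6, was at 5.45 and 4.68 TPM in control and at 3.59 and 4.17 TPM in DMSO libraries (limma adjusted p = 0.483). Cdkn1b, the inhibitor p27, stayed under the filter in every library, with 0.51 TPM as its highest value. Rb1, the restraint on E2F factors, was at 42.5 and 28.0 TPM in control and at 71.2 and 46.2 TPM in DMSO libraries (log2 fold change 0.72, limma adjusted p = 0.166). E2f1, a transcription factor that Rb1 binds, was low, at 1.49 and 3.01 TPM in control and at 1.23 and 1.10 TPM in DMSO libraries. Its log2 fold change was -0.55 (limma adjusted p = 0.31), between -0.89 and -0.20 without any one library.

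The bases upstream of a few of these genes are shown because genes of mitosis are known to share short promoter elements, a CHR element (TTTGAA) bound by DREAM and MYB-FOXM1 complexes and CCAAT boxes bound by NF-Y, while genes of replication often carry E2F sites. RefSeq promoter windows of GRCm38.p6, from 250 bases before to 50 bases after an annotated start, were found for 39 of the 50 genes. The 5 shown are Cdk1 (chr10:69352913-69353062), Ccnb1 (chr13:100786487-100786636), Ccnb2 (chr9:70421555-70421704), Cdc20 (chr4:118437344-118437493) and Cdk2 (chr10:128705052-128705201), all on the minus strand, each as the 150 bases before the start, 5′ to 3′. They set genes with lower values in DMSO embryos beside Ccnb2 and Cdc20, whose mean was higher, and were chosen with these values known. Of the 5 only Cdk2 was called, and Ccnb2 overlapped between the groups. Capitals mark the motifs on either strand, so CCAAT also appears as ATTGG, and the TTTGAA matches of Ccnb2 lie outside the bases shown.
Cdk1: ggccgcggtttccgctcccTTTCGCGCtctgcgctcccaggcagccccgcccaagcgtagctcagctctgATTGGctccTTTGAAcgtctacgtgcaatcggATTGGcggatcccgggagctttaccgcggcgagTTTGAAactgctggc
Ccnb1: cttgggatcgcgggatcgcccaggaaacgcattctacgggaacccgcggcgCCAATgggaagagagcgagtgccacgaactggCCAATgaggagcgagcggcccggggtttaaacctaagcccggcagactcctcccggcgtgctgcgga
Ccnb2: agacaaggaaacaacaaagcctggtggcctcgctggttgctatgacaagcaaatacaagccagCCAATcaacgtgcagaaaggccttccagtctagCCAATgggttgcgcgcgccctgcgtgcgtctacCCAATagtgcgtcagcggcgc
Cdc20: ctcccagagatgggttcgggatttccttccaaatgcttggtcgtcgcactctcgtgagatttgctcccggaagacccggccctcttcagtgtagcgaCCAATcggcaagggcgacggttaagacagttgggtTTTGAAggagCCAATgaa
Cdk2: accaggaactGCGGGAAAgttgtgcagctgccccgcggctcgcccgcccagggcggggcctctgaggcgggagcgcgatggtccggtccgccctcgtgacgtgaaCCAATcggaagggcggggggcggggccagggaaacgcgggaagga
TTTGAA on either strand was in the windows of 12 of the 39 genes, or 30.8%, and in those of 20.2% of all 27025 genes with a window. These 27025 include genes that were not tested here, unlike the background used elsewhere. CCAAT on either strand was in 24 of the 39, or 61.5%, against 41.1% of all genes. An E2F motif, taken as TTTCCCGC, TTTCGCGC, TTTGCCGC or TTTGGCGC on either strand, was in 3 of the 39, or 7.69%, against 2.61% of all genes, the 3 being Cdk1, Cdk2 and Cdc25a. A gene with several annotated starts was counted once if any of its windows held the motif, and the letters of the 3 motifs did not overlap in the 5 sequences above. The median log2 fold change was -0.55 for the 12 tested genes with TTTGAA and -0.55 for the 22 without it, and -0.55 for the 22 tested genes with CCAAT and -0.55 for the 12 without it. These matches are a description of letters, not of binding.

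Of the mitotic kinases and the chromosomal passenger complex, none passed the test, and all but Birc5 of those tested had lower means in DMSO embryos. Of 6 tested, limma called 0 lower and 0 higher, beside 14.1% and 6.42% of all genes tested. An unadjusted p under 0.05 with lower values was found for 3, and for 24.3% of all genes, and in 5 of the 6 both DMSO libraries lay below both control libraries, as in 38.7% of all genes tested. The median log2 fold change was -0.64, or -0.38 with quantile normalization. Aurora kinase A (Aurka), which matures the spindle poles, was closest to the threshold. It was at 212 and 159 TPM in control and at 108 and 85.0 TPM in DMSO libraries, a log2 fold change of -0.93 (SE 0.28, limma adjusted p = 0.0579, and 0.043 with a filter at a mean of 5 TPM, the lowest of the alternatives without a block, which reached 0.253). Aurkb, the kinase of the passenger complex that corrects faulty attachments, was at 54.9 and 40.6 TPM in control and at 27.4 and 28.5 TPM in DMSO libraries (log2 fold change -0.74, limma adjusted p = 0.102).

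The 3 other passenger subunits did not share one pattern. Borealin (Cdca8) was the third most abundant of the 49 genes, at 787 and 595 TPM in control and at 519 and 405 TPM in DMSO libraries (log2 fold change -0.58, limma adjusted p = 0.164). Incenp, the scaffold of the complex, was at 117 and 88.3 TPM in control and at 66.1 and 58.8 TPM in DMSO libraries (log2 fold change -0.69, limma adjusted p = 0.107). Survivin (Birc5) was at 6.54 and 6.84 TPM in control and at 8.1 and 6.43 TPM in DMSO libraries, so its groups overlapped. Levels of the subunits thus ran from Birc5 over Aurkb and Incenp to Cdca8 in all 4 libraries. Plk1, the Polo kinase of mitotic entry, was at 97.9 and 72.5 TPM in control and at 67.4 and 48.7 TPM in DMSO libraries. Its log2 fold change was -0.55 (limma adjusted p = 0.212), between -0.78 and -0.32 without any one library. Plk4, the kinase of centriole duplication, was listed at 0 in all 4 libraries.

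In the spindle checkpoint, Bub3 fell while Mad2l1, its most abundant component here, overlapped between the groups. Of 5 tested, 1 was called lower and 0 higher, beside 14.1% and 6.42% of all genes tested, and 2 had an unadjusted p under 0.05 with lower values, beside 24.3% of all genes. The median log2 fold change was -0.53, or -0.29 without control replicate 1 and -0.29 without DMSO replicate 2. Bub3, which carries Bub1 and BubR1 to kinetochores (ENSMUSG00000066979, chr7:131560222-131571895), was at 48.0 and 31.3 TPM in control and at 8.04 and 6.49 TPM in DMSO libraries. Its mean was 5.46 times higher in control, with a log2 fold change of -2.27 (SE 0.33, limma adjusted p = 0.0181, between -2.57 and -1.97 without any one library), and 2.53% of its words are shared. Bub1, a kinase that Bub3 recruits, was at 35.1 and 25.8 TPM in control and at 19.6 and 13.3 TPM in DMSO libraries (log2 fold change -0.86, limma adjusted p = 0.101). Bub1b, the gene of BubR1, was at 14.6 and 10.2 TPM in control and at 9.84 and 6.8 TPM in DMSO libraries, where the lower control and the higher DMSO library almost met (limma adjusted p = 0.283). Mad2l1, which sequesters the APC/C activator Cdc20, was at 215 and 231 TPM in control and at 341 and 216 TPM in DMSO libraries, only DMSO replicate 1 standing above the others (log2 fold change 0.28, limma adjusted p = 0.494). Ttk, the kinase that starts checkpoint signalling, was at 1.37 to 2.49 TPM over the 4 libraries and overlapped.

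Of the APC/C subunits, Anapc7, Anapc13 and Cdc27 fell. Of 12 listed 11 were tested. Called lower were 3, or 27.3%, and called higher 0, beside 14.1% and 6.42% of all genes tested. An unadjusted p under 0.05 with lower values was found for 4, or 36.4%, and for 24.3% of all genes. With higher values it was found for 0, and for 15.8% of all genes. In 7 of the 11 both DMSO libraries lay below both control libraries, or 63.6%, against 38.7% of all genes tested. In 1 of the 11 both lay above, against 31.1% of all genes tested, and 3 overlapped. Their log2 fold changes ran from -1.54 to 0.42 with a median of -0.55, the same as that of all 44 genes, or -0.35 without DMSO replicate 2. Anapc7, one of the subunits built of tetratricopeptide repeats (ENSMUSG00000029466, chr5:122421693-122444912), was at 82.7 and 69.0 TPM in control and at 19.8 and 32.5 TPM in DMSO libraries. Its log2 fold change was -1.54 (SE 0.32, limma adjusted p = 0.0285). Cdc27, of the same kind and a docking site for Cdc20 and Cdh1 (ENSMUSG00000020687, chr11:104502745-104550620), was at 128 and 113 TPM in control and at 65.7 and 58.9 TPM in DMSO libraries. Its log2 fold change was -0.94 (SE 0.25, limma adjusted p = 0.0448), the adjusted p closest to the threshold of the 7 calls, and it was 0.0516 with a pseudocount of 0.1, 0.0676 without a trend, 0.0545 with median-ratio scaling and 0.0971 with quantile normalization, in a range of 0.0319 to 0.217 over the alternatives without a block. Anapc13, a small stabilising subunit (ENSMUSG00000035048, chr9:102626296-102634425), was at 7.88 and 5.97 TPM in control and at 2.22 and 2.21 TPM in DMSO libraries (log2 fold change -1.29, SE 0.33, limma adjusted p = 0.0402). Of its words 9.72% are shared, 8.47% with Cep63, which itself was called lower, from 40.6 and 53.5 TPM in control to 16.2 and 16.9 TPM in DMSO libraries (log2 fold change -1.44, limma adjusted p = 0.025).

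The catalytic core of the complex consists of Anapc11, which recruits the ubiquitin-loaded enzyme, and the cullin Anapc2. Anapc11 was at 114 and 168 TPM in control and at 57.5 and 107 TPM in DMSO libraries, where the lower control and the higher DMSO library nearly met (log2 fold change -0.81, limma adjusted p = 0.154, between -1.25 and -0.37 without any one library). Anapc2 stayed under the filter, between 0 and 0.566 TPM. Anapc4, a platform subunit, was at 79.3 and 79.9 TPM in control and at 38.1 and 55.6 TPM in DMSO libraries (log2 fold change -0.78, limma adjusted p = 0.0948). Cdc16 and Anapc10, the latter a receptor for substrates, also lay lower in both DMSO libraries, with log2 fold changes of -0.55 each and limma adjusted p-values of 0.188 and 0.222. Cdc23 was the subunit whose DMSO libraries both lay above the controls. It was at 14.0 and 9.43 TPM in control and at 16.1 and 15.4 TPM in DMSO libraries. Its log2 fold change was 0.42 (limma adjusted p = 0.345), between 0.16 and 0.68 without any one library. The scaffold Anapc1 with 19.5 to 35.5 TPM, Anapc5 with 12.1 to 19.6 TPM and the small subunit Cdc26 with 3.54 to 10.9 TPM overlapped between the groups.

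The regulators of the APC/C and its substrate securin had higher means in DMSO embryos, apart from separase, without a single call. Of 5 tested, limma called 0 lower and 0 higher, beside 14.1% and 6.42% of all genes tested. Fzr1 alone had an unadjusted p under 0.05, with a higher value, as had 15.8% of all genes. In 4 of the 5 both DMSO libraries lay above both control libraries, as in 31.1% of all genes tested, and the median log2 fold change was 0.62, or 0.36 without control replicate 1. Fzr1 (Cdh1), the activator that keeps the APC/C on after mitosis, was at 10.9 and 8.77 TPM in control and at 17.1 and 16.3 TPM in DMSO libraries (log2 fold change 0.72, SE 0.29, limma adjusted p = 0.118). Cdc20, the activator at anaphase, was at 28.2 and 40.9 TPM in control and at 46.4 and 47.0 TPM in DMSO libraries (log2 fold change 0.45, limma adjusted p = 0.284, between 0.19 and 0.71 without any one library), and 26.7% of its words are shared, mostly with a pseudogene, Gm7856, that stayed at or under 0.122 TPM.

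Emi1 (Fbxo5), which inhibits the APC/C before mitosis, was at 139 and 79.5 TPM in control and at 222 and 147 TPM in DMSO libraries. The higher control and the lower DMSO library lay close together (log2 fold change 0.78, SE 0.36, limma adjusted p = 0.158, between 0.38 and 1.18 without any one library). Securin (Pttg1), which holds separase inactive until the APC/C destroys it, was at 193 and 276 TPM in control and at 389 and 322 TPM in DMSO libraries (log2 fold change 0.62, limma adjusted p = 0.152). Separase (Espl1), the protease that cuts the cohesin ring, was the exception, at 32.7 and 28.7 TPM in control and at 17.7 and 21.7 TPM in DMSO libraries (log2 fold change -0.62, limma adjusted p = 0.148).

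**Figure D3:**
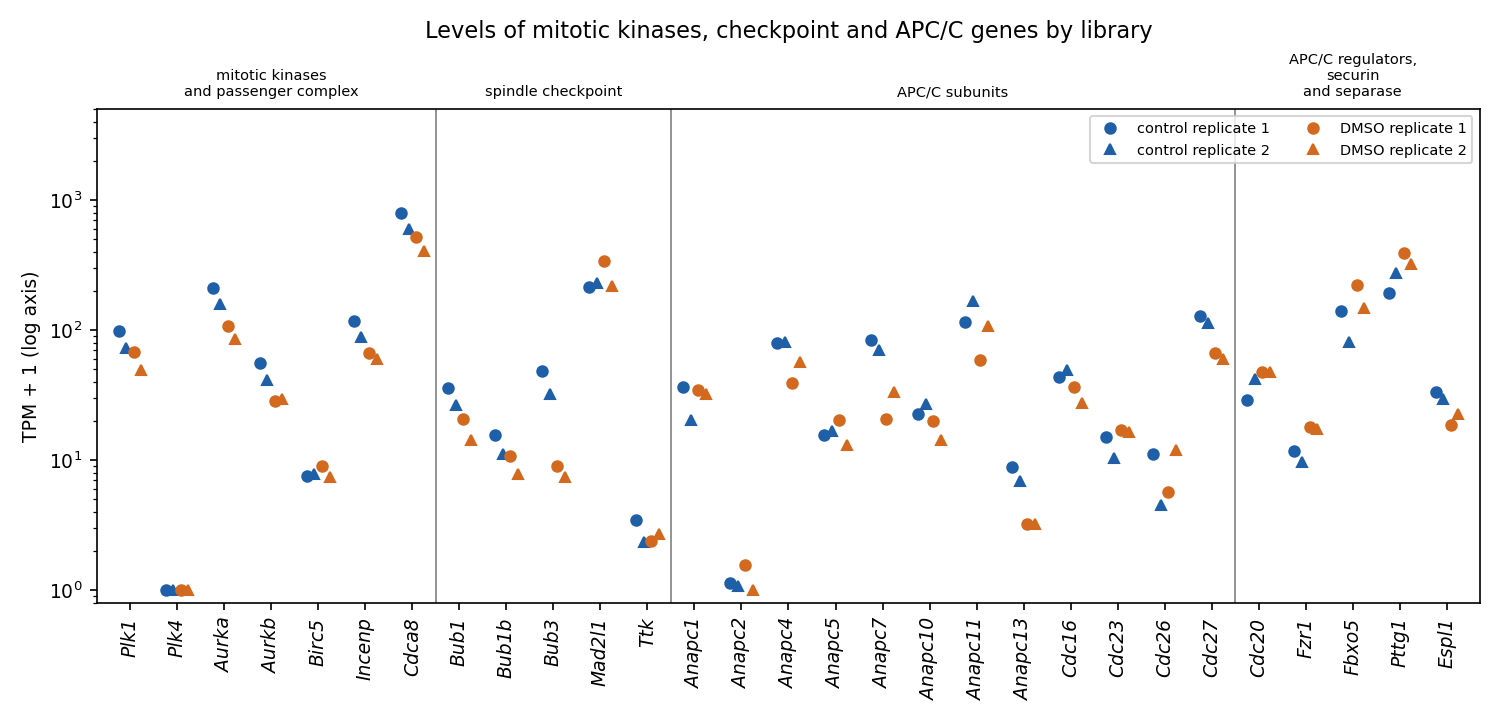
TPM + 1 on a log axis for each mitotic kinase, passenger, checkpoint and APC/C gene in the 4 libraries, blue for control and orange for DMSO, circles for replicate 1 and triangles for replicate 2. Bub3, Anapc7, Anapc13 and Cdc27 show a gap between the colours, while Mad2l1, Anapc1 and Cdc26 are mixed.

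By level, 5 genes dominated in both groups. Ccnb1, Ccna2, Cdca8, Cdk1 and Ccne1 together held 63.3% and 61.2% of the TPM of the 49 genes in control libraries and 54.9% and 57.0% in DMSO libraries. Their sum was 3791 and 3310 TPM in control and 2433 and 2204 TPM in DMSO libraries, and the other genes summed to 2201 and 2096 TPM in control and 1998 and 1663 TPM in DMSO libraries. The gap between the groups in the summed level thus lay mainly in these 5 genes, none of which was called in the fit without a replicate block, while the 7 called genes had means between 4.57 and 112 TPM over the 4 libraries.

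**Figure D4:**
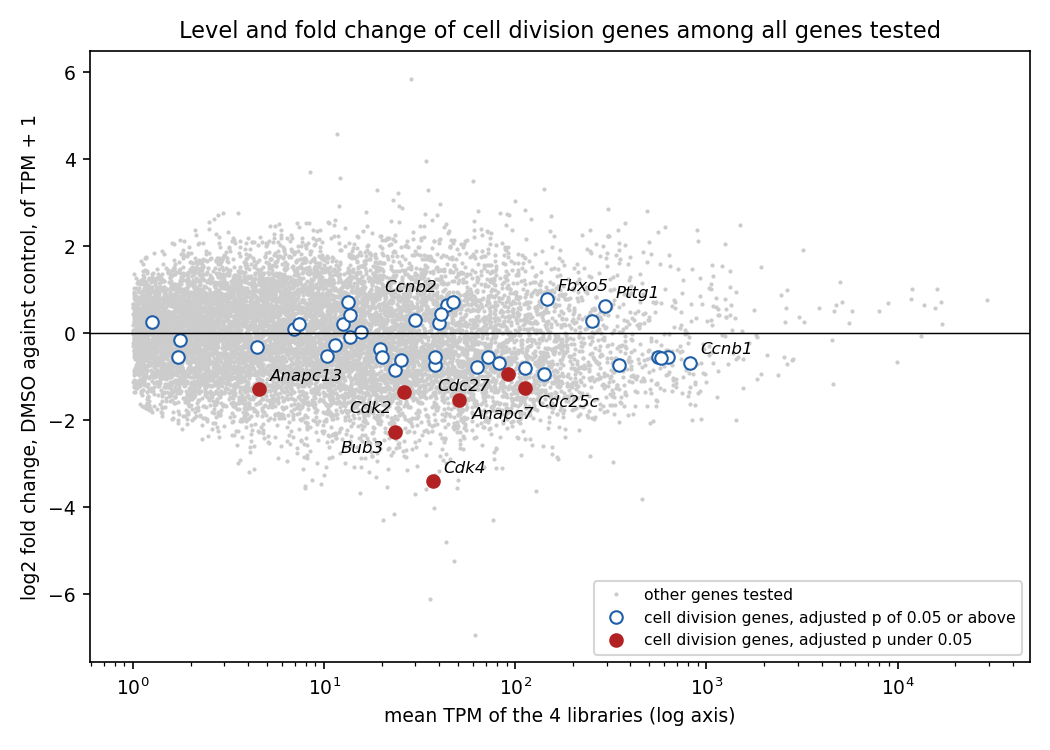
Mean TPM of the 4 libraries on a log axis against the log2 fold change of TPM + 1, DMSO against control, with grey points for the other genes tested, open circles for genes of the list without a call and red points for the 7 called. The called genes have means from 4.57 TPM (Anapc13) to 112 TPM (Cdc25c), and Ccnb1, the most abundant gene of the list, lies at -0.68.

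Other genes of the same pathway, listed by name, moved in both directions. Of 86 partner genes 83 were in the table and 74 were tested, 8 were called lower and 5 higher. These are 10.8% and 6.76%, beside 14.1% and 6.42% of all genes tested, and the median log2 fold change was -0.25. Without the filter, without control replicate 1, without control replicate 2 or without DMSO replicate 1 limma called none of them, and without DMSO replicate 2 it called 4 lower and 1 higher, beside 10.6% and 5.04% of all genes tested. Cyclin H (Ccnh) and Cdk7, which with Mnat1 form the kinase that activates other CDKs, were both called lower. Ccnh was at 34.6 and 56.6 TPM in control and at 5.79 and 5.95 TPM in DMSO libraries (log2 fold change -2.72, SE 0.33, limma adjusted p = 0.0181). Cdk7 was at 19.8 and 20.1 TPM in control and at 4.06 and 5.93 TPM in DMSO libraries (log2 fold change -1.82, limma adjusted p = 0.0217). Mnat1, named after its value was seen, was at 38.8 and 30.0 TPM in control and at 18.4 and 24.4 TPM in DMSO libraries and did not pass (limma adjusted p = 0.148).

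The small CDK-binding proteins Cks2 and Cks1b were called higher, and Cks2 was more abundant than any of the 49 genes. Cks2 was at 3343 and 2836 TPM in control and at 7560 and 6353 TPM in DMSO libraries (log2 fold change 1.17, SE 0.26, limma adjusted p = 0.0308). It is uncertain, since 31.7% of its words are shared with the pseudogene Gm15452, which was at 95.9 and 452 TPM in control and 617 and 877 TPM in DMSO libraries, and the adjusted p of Cks2 was 0.0655 with quantile normalization, in a range of 0.0232 to 0.222. Cks1b was at 555 and 353 TPM in control and at 1282 and 833 TPM in DMSO libraries (log2 fold change 1.22, limma adjusted p = 0.0488). It lost its call with a pseudocount of 0.1 and without a trend, at adjusted p-values of 0.0557 and 0.0686, in a range of 0.0353 to 0.29. The CDK inhibitor Cdkn1c, the product of an imprinted gene, was at 7.11 and 3.99 TPM in control and at 28.7 and 31.6 TPM in DMSO libraries (log2 fold change 2.29, limma adjusted p = 0.0184), and 27.2% of its words are shared with Gm44732.

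Lin52, a subunit of the DREAM and MYB-MuvB complexes that read CHR elements, was at 40.2 and 39.8 TPM in control and at 4.9 and 4.8 TPM in DMSO libraries (log2 fold change -2.81, limma adjusted p = 0.0181). The phosphatase gene Cdc14b was at 46.1 and 42.4 TPM in control and at 8.6 and 12.2 TPM in DMSO libraries (log2 fold change -2.004, limma adjusted p = 0.0181). Knl1, the kinetochore protein to which Bub3 docks, was at 47.2 and 45.5 TPM in control and at 24.4 and 15.3 TPM in DMSO libraries (log2 fold change -1.22, limma adjusted p = 0.0414). Its adjusted p was 0.0539 without a trend, 0.0502 with median-ratio scaling and 0.0593 with quantile normalization, in a range of 0.0286 to 0.218. The Polo kinase Plk2, known from stress responses, was at 12.3 and 5.95 TPM in control and at 31.6 and 23.0 TPM in DMSO libraries (log2 fold change 1.54, limma adjusted p = 0.0414), and E2f2 was at 7.04 and 5.24 TPM in control and at 15.1 and 14.3 TPM in DMSO libraries (log2 fold change 1.15, limma adjusted p = 0.0448). The adjusted p of Plk2 was 0.0502 without a trend, in a range of 0.0288 to 0.242. The 3 other partner genes called lower, outside the naming rule and named after their values were seen, were Ndc80, Skp2 and Rbbp4.

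The labelled stage was checked against markers. Of 17 markers of oocytes and 2-cell embryos all were in the table and 16 were tested, with summed levels of 13565 and 16649 TPM in control and 15987 and 19020 TPM in DMSO libraries, of which Dppa3 was the most abundant. Nlrp5 was near 0 in all 4 libraries, at most 0.142 TPM. Of the 16, limma called 5 higher, Bmp15, Oosp1, Tcstv1, Tcstv3 and Zfp352, and 0 lower, beside 6.42% higher and 14.1% lower of all genes tested, with a median log2 fold change of 0.95. The other 11 did not pass, and Dppa3, Zscan4d and Usp17la overlapped between the groups. The part of the 5 called markers in the results above was not tested. Of 12 markers of cumulus and granulosa cells 2 were tested, the sum being 39.7 and 31.4 TPM in control and 13.0 and 19.7 TPM in DMSO libraries. The most abundant was Amhr2, at 36.8 and 29.6 TPM in control and 8.29 and 16.5 TPM in DMSO libraries, which was called lower. Cyp11a1, the other one tested, was at 0.781 and 0.802 TPM in control and 2.1 and 0.958 TPM in DMSO libraries without a call, and Cyp19a1, under the filter, was at 0.422 and 0.494 TPM in control and 1.255 and 1.08 TPM in DMSO libraries, both without overlap and higher in DMSO, while Amh, Inhba and Lhcgr were listed at 0 and Fshr and Foxl2 did not pass 0.083 TPM. Oviduct markers summed to 20.01 and 22.6 TPM in control and 28.5 and 36.6 TPM in DMSO libraries, mostly Ovgp1, with 0 called and Cldn10 listed at 0. Sperm markers summed to 2.96 and 3.38 TPM in control and 13.5 and 8.69 TPM in DMSO libraries, mostly Prm2, which with Tnp1 was called higher, and Tnp2 was listed at 0. Blood markers summed to 14.2 and 4.45 TPM in control and 12.4 and 29.1 TPM in DMSO libraries, with 0 called. The most abundant was Hba-a2, at 6.94 and 2.51 TPM in control and 6.9 and 11.7 TPM in DMSO libraries, and Lyz2 was at 9.39 TPM in DMSO replicate 2 and at most 0.747 TPM in the other libraries. The part of these other cell types in the results was not tested.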

How the data were processed

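RNA of 2-cell embryos was measured in 4 libraries, made with a low-input kit and sequenced as 50-base reads that the labels describe both as single end and as paired end. The authors quantified transcripts with kallisto against Ensembl transcripts of GRCm38, summed them per gene with tximport and deposited TPM values, whose depth is unknown. Symbols came from GENCODE M21, on the same assembly, and 29589 identifiers had a symbol and 460 had none. The study tested estimated counts with DESeq2, and TPM values are not counts. Therefore limma 3.58.1 (R 4.3.3) was run on log2(TPM + 1) for genes averaging 1 TPM or more, with the variance trended on the mean. It had no block for replicate number, and Benjamini-Hochberg adjustment was over all genes tested. Tried on simulated data with independent noise, the fit missed most of the smaller changes set, so a gene without a call may have changed. Shared sequence is the percent of a gene's 31-base words, on either strand, found in transcripts of other genes. Named were all genes of the list, and the called partner genes averaging 10 TPM or more, at most the 5 highest and 5 lowest. Members, lists and tests were chosen with earlier results of these data known, and the study's own pathway terms from these libraries include APC/C and mitosis, so no list is independent evidence. Alternatives were a pseudocount of 0.1, no filter, a filter at 5 TPM, no trend, median-ratio scaling, quantile normalization, a replicate block and leaving out each library. Python 3.11.15, pandas 2.3.3, numpy 2.4.6 and matplotlib 3.10.9 did the remaining steps.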

Additional observations from a re-analysis of the deposited data

How the results depend on the processing

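The 44 genes tested kept their direction under a pseudocount of 0.1 and median-ratio scaling, and Pkmyt1 alone turned with quantile normalization, to a log2 fold change of 0.0448. The filters, the trend and the replicate block leave a fitted fold change as it is and bear on the calls only. The number called lower, 7, was 0 with no filter, and the number of partner genes called fell to 0 lower and 0 higher. Without a trend 3 of the 74 partner genes were called higher, beside 5.23% of all genes, and with quantile normalization 4 were called lower, beside 9.31% of all genes. Quantile normalization moved the median log2 fold change of the genes from -0.55 to -0.34, that of the cyclins and CDKs from -0.55 to -0.35, that of the mitotic kinases and passenger complex from -0.64 to -0.38 and that of the APC/C regulators, securin and separase from 0.62 to 0.85. It balanced the calls over all genes, to 9.31% lower and 8.94% higher. The replicate numbers are not stated to mark a shared litter or day, and the deviations of same-numbered libraries had r = 0.35 over the 12038 genes, which are no independent replicates. With the replicate number as a block, 18 of the 44 were called lower and 3 (Fzr1, Fbxo5 and Rb1) higher, 40.9% and 6.82% beside 24.8% and 17.9% of all genes tested, and of the partner genes 17 lower and 12 higher. The 11 lower calls gained were Ccna2, Ccnb1, Ccne1, Cdk1, Aurka, Aurkb, Incenp, Cdca8, Bub1, Anapc4 and Anapc11. Leaving out each library left 1 library in its group, assumed to vary like the other group, with 1 residual degree of freedom. The number called lower then ran from 0 to 4, that of partner genes from 0 to 4 lower and from 0 to 1 higher, beside 0% to 10.6% lower and 0% to 5.04% higher of all genes, the median of the APC/C regulators, securin and separase from 0.36 to 0.75, that of the spindle checkpoint from -0.77 to -0.29 and that of the APC/C subunits from -0.68 to -0.35. Genes without a call that turned sign without a library, over the 4 fits, were Ccnd1 (-0.14 to 0.63), Ccne2 (-0.12 to 0.60), Pkmyt1 (-0.39 to 0.19), Birc5 (-0.0492 to 0.24), Mad2l1 (-0.0439 to 0.61), Ttk (-0.44 to 0.12), Anapc1 (-0.13 to 0.71), Anapc5 (-0.31 to 0.34) and Cdc26 (-0.45 to 0.86). The cause of these changes was not tested.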

Other observations

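Ratios of levels within a library do not change when a library is scaled by a single factor, although quantile normalization can change them. The pairs below were chosen after their values were seen, and they have no test. The ratio of Ccnb1 to Ccnb2, the main B cyclins, was 28.2 and 33.7 in control replicates 1 and 2 and 9.48 and 15.5 in DMSO replicates 1 and 2. The ratio of Ccne1 to Ccne2 was 10.9 and 13.4 in control and 4.305 and 8.675 in DMSO libraries. In both families the more abundant member thus held a smaller share in the DMSO libraries, which did not overlap with the controls. The ratio of the Cdk1 activator Cdc25c to the inhibitory kinase Wee1 was 8.015 and 6.2 in control and 4.18 and 3.54 in DMSO libraries. Securin to separase (Pttg1 to Espl1) was 5.89 and 9.62 in control and 21.95 and 14.8 in DMSO libraries, and Cdk4 to Cdk2 was 1.155 and 2.41 in control and 0.376 and 0.334 in DMSO libraries. The ratio of Fbxo5 to Fzr1, an inhibitor and an activator of the APC/C, was 12.8 and 9.07 in control and 13.0 and 9.0 in DMSO libraries, and the groups overlapped.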
